A study of Homo sapiens with 23 samples.

Results

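Clone H6 of PC-3 cells in experiment N contributed 6 of the 23 sequenced samples, and its 2 groups are described here across 10767 of the 21463 gene rows. The genes are those whose higher group mean was at least 1 RPKM, where RPKM scales reads to exon length and library size. PC-3 is an established human prostate cancer line that was derived from a bone metastasis. The treated group was 3 wells of clone H6 at passage 5, kept for 72 h with 500 ng/ml doxycycline, and the control group was 3 wells of the same clone and passage kept for 72 h without it. All 6 wells carried the same lentiviral TetOne construct, in which doxycycline switches on a PARG cDNA joined to the fluorescent protein mClover3 by a cleavable link. H6 is a single clone, so its wells are replicate cultures and no other clone enters the comparison, which asks which transcripts differ when PARG is induced. No cells lacking the construct are among the samples used, so an effect of doxycycline itself and an effect of PARG cannot be told apart. Set beside it is clone I4 in the same experiment (6 samples). Clone H6 in experiment B, grown to passage 7 and sequenced elsewhere from libraries that keep the strand, is also set beside it. That experiment has 5 samples of H6, 3 with doxycycline and 2 without.

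Poly(ADP-ribose) is a polymer that PARP enzymes, above all PARP1, build on proteins from NAD+, and PARG cuts it back to single units. The polymer forms quickly at DNA breaks, where it gathers repair factors, and it also loosens chromatin at some active genes. PARP1 is known as a partner of NF-kB, the transcription factor that switches on chemokines and other inflammatory genes, and PC-3 cells are known to secrete such factors.

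The authors' deposited table gives 3 numbers per gene for this comparison: the higher of the group means, a signed fold change and a q-value, which is a p-value adjusted for many genes. It holds no value per well, so no SD can be given and the groups' wells cannot be compared one by one. The level of the other group was obtained here by dividing the higher mean by the fold. A gene is called higher or lower when the authors' q-value was under 0.05; where a q is listed as 0 it is printed so. Genes listed at very low levels rest on single reads. With the levels taken as RPKM, the steps between their values put the 6 libraries at 33.6 to 43.2 M reads. The epithelial keratins KRT8 and KRT18 reached 55.9 and 120.8 RPKM in the authors' deposited table, with EPCAM at 5.66, CD44 at 56.4 and vimentin (VIM) at 416 RPKM. KLK3, a secreted prostate product that PC-3 is known to lack, was listed at 0 in the authors' deposited table. Markers of fibroblasts, endothelium, blood and neuroendocrine cells had 1 listed gene each at 1 RPKM or more, and these were COL1A1, ROBO4, CD68 and ENO2; no marker of the 4 lists was listed at 0. The summed levels with and without doxycycline were 16.7 and 18.9 RPKM for 9 fibroblast markers, 3.24 and 5.65 RPKM for 9 endothelial markers, 26.8 and 26.3 RPKM for 10 blood markers, and 41.9 and 33.3 RPKM for 8 neuroendocrine markers.

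PARG stood at 56.2 RPKM with doxycycline, against 26.1 RPKM without it, in the authors' deposited table. The table does not name the direction of its folds, and the sign of PARG, the induced gene, was used to set it; every other direction rests on that. The 2.15-fold difference in the authors' deposited table has a q listed as 0. The gene, ENSG00000227345, spans bases 49818279 to 49970203 on the minus strand of chromosome 10 (GRCh38), and TIMM23B overlaps its exons on the opposite strand. Reads from the construct and from the endogenous gene were not separated. Of 26 writers, erasers and readers measured, PARG and 2 others were called higher and PARP1 lower, with a median log2 fold of 0.01. Those calls are 11.5% higher and 3.85% lower, against 9.87% and 10.5% over all genes. PARP1 stood at 135.6 RPKM with doxycycline, against 169.8 RPKM without it, a 1.25-fold difference in the authors' deposited table (q = 0.0151). PARP10, which adds single ADP-ribose units, was 1.23-fold higher in the authors' deposited table (q = 0.00359). ADPRHL2, the ARH3 hydrolase that removes ADP-ribose from serine, was 1.22-fold higher in the authors' deposited table (q = 0.00137). The second nuclear polymerase PARP2 differed by less than 1.01-fold, and HPF1, the cofactor that directs PARP1 to serine, likewise, both with q = 1.00 in the authors' deposited table.

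Across the 10767 genes, 2193 (20.4%) were called, 1063 higher (9.87%) and 1130 lower (10.5%) with doxycycline. Counts of calls in each list below are to be set against these shares over all genes. Nearly all differences were small: the median size among called genes was 0.31 on the log2 scale, or 1.24-fold, and the median over all genes tested was -0.01. A log2 fold of at least 1 in either direction was reached by 68 called genes (0.632%), 25 of them higher and 43 lower. Secreted inflammatory factors were among the largest falls, beside read-through transcripts and a duplicated histone gene, described below. At the level threshold, the authors' deposited table lists ACVR2A just outside at 0.99937 RPKM and 1.04-fold higher (q = 1.00), and HS3ST5 just inside at 1.0006 RPKM and 1.53-fold higher (q = 0.0307). In bulk RNA, fewer cells that express a gene and less RNA per cell cannot be told apart, which holds for each fall and rise given here.

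**Figure D1:**
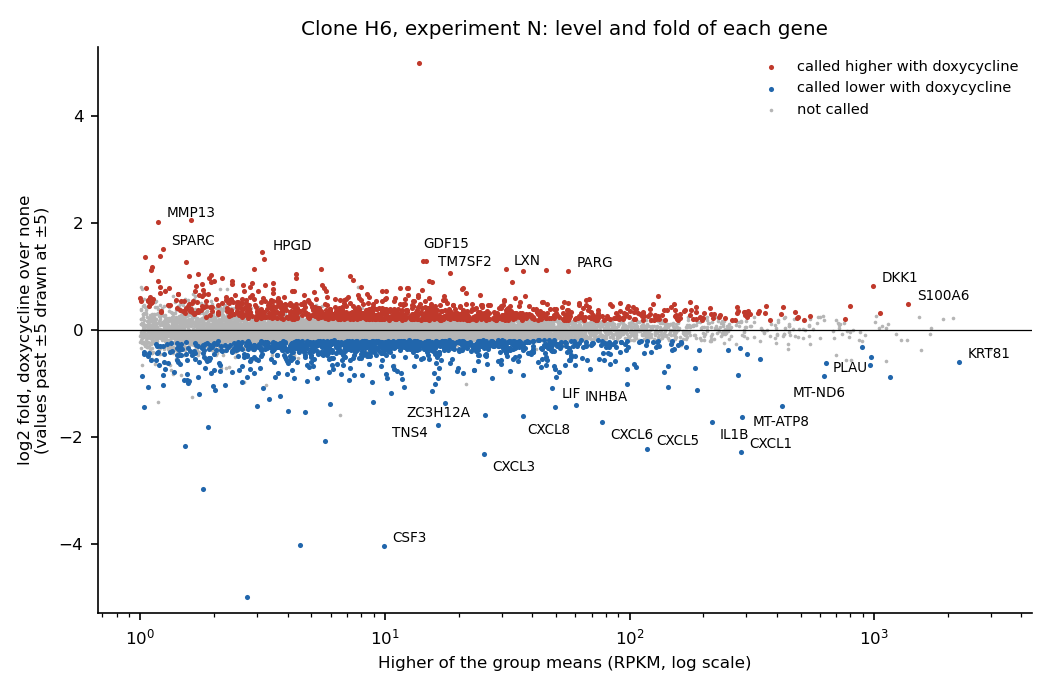
Each point is 1 of the 10767 genes, with the higher of its group means in RPKM on a log axis against its log2 fold, doxycycline over none; red and blue mark genes called higher and lower. Chemokines and IL1B form the lower edge at levels up to that of CXCL1 (285.3 RPKM), most called genes lie within 1 log2 unit of 0, and 2 called genes beyond the axis are drawn at its edges, HIST2H2AA3 at the top and ARL2-SNX15 at the bottom.

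The chemokines CXCL1, CXCL2, CXCL3, CXCL5, CXCL6 and CXCL8, which attract neutrophils, fell. These small secreted proteins act on the receptors CXCR1 and CXCR2, and their genes sit side by side on chromosome 4. Of 9 CXC and CC chemokine genes measured, 6 were called lower (66.7%) and 1 higher (11.1%), against 10.5% and 9.87% over all genes. The median log2 fold was -1.60. CXCL1 stood at 58.9 RPKM with doxycycline, against 285.3 RPKM without it, a 4.84-fold fall in the authors' deposited table (q listed as 0). CXCL3 stood at 5.09 RPKM with doxycycline, against 25.3 RPKM without it, and fell 4.98-fold in the authors' deposited table (q listed as 0). CXCL5, at 25.4 RPKM with doxycycline, against 118.4 RPKM without it, fell 4.65-fold in the authors' deposited table (q listed as 0). Those 3 genes thus lost about the same proportion, from levels an order of magnitude apart. CXCL6 fell 3.30-fold to 23.4 RPKM with doxycycline, against 77.1 RPKM without it, in the authors' deposited table (q listed as 0). CXCL8, or interleukin-8, fell 3.03-fold to 12.1 RPKM with doxycycline, against 36.6 RPKM without it, in the authors' deposited table (q listed as 0). CXCL2 fell 2.52-fold to 3.53 RPKM with doxycycline, against 8.90 RPKM without it, in the authors' deposited table (q = 9.33e-13). The other 3 members did not share the fall: CXCL16, a membrane-bound chemokine of another receptor, was 1.47-fold higher in the authors' deposited table (q = 0.0154), and CCL26 and CCL28 were not called.

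The promoters of these genes are shown because they share a short motif. NF-kB binds sites near GGG, any 2 bases and TTTCC, or near GGANTTTCC, patterns that overlap each other, and AP-1 binds TGANTCA; each was searched on both strands in the 200 bases before the RefSeq start (RefSeq, GRCh38.p14), and matches are in capitals in the sequences below.
CXCL1: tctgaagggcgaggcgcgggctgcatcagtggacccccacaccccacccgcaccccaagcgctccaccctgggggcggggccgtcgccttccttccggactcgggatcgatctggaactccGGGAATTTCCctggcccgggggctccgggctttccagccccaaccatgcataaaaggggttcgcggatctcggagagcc
CXCL5: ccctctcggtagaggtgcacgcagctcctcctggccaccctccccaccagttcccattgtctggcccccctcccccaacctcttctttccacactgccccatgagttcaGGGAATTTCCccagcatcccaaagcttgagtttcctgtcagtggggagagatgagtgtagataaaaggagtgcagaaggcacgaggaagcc
CXCL8: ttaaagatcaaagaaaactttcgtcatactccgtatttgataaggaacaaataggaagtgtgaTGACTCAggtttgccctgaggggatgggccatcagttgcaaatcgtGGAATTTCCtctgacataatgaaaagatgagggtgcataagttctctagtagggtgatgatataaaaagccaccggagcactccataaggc
IL6: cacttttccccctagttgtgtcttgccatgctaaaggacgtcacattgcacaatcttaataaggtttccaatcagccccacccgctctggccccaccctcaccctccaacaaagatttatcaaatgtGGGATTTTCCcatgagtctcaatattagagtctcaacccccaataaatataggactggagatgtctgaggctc
These windows are chr4:73869193-73869392 (plus strand) for CXCL1, chr4:73998678-73998877 (minus strand) for CXCL5, chr4:73740369-73740568 (plus strand) for CXCL8 and chr7:22727000-22727199 (plus strand) for IL6. The letters GGGAATTTCC end 70 bases before the start in CXCL1 and CXCL3, 69 in CXCL2, 81 in CXCL6 and 82 in CXCL5. In CXCL8 the shorter pattern ends 83 bases before the start, and an AP-1 pattern, TGACTCA, lies upstream of it. Either NF-kB pattern was present in 6 of the 8 chemokine promoters in the table, against 2.12% of all 27305 promoters and 2.31% of those of the genes tested. Among called genes the share was 2.19% of the promoters of genes that were higher and 4.1% of those of genes that were lower. Promoters were available for only 16 of the 25 called genes at least 2-fold higher and 25 of the 43 at least 2-fold lower. CSF3 was among those without one. The share with either pattern was 1 of those 16 promoters for the higher genes and 7 of those 25 for the lower genes. Of those 7 genes, 6 are neighbours in the chemokine cluster and the other is IL6. A match says nothing of whether a factor was bound, and IL1B, described below, has neither pattern in this window.

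Interleukins and colony-stimulating factors carry signals between immune cells. Of 12 measured, 7 were called lower (58.3%) and 1 higher (8.33%), against 10.5% and 9.87% over all genes. The median log2 fold was -0.84, against -0.12 when members under 1 RPKM are kept. CSF3 (ENSG00000108342, chromosome 17, bases 40015361 to 40017813), which encodes the granulocyte factor G-CSF, stood at 0.60 RPKM with doxycycline, against 9.92 RPKM without it. That 16.5-fold fall in the authors' deposited table (q listed as 0) was exceeded among called genes only by the read-through transcript ARL2-SNX15, described below. IL1B, the interleukin-1 beta precursor, was abundant: it stood at 65.6 RPKM with doxycycline, against 216.6 RPKM without it, and fell 3.30-fold in the authors' deposited table (q listed as 0). LIF, a cytokine of the IL-6 family, fell 2.70-fold to 18.4 RPKM with doxycycline, against 49.5 RPKM without it, in the authors' deposited table (q listed as 0). IL6 itself fell 2.61-fold to 2.28 RPKM with doxycycline, against 5.95 RPKM without it, in the authors' deposited table (q = 2.15e-13). CSF2, IL11 and IL23A fell 1.91-fold, 1.90-fold and 1.69-fold in the authors' deposited table, with q from 3.98e-05 to 0.00693. The member that rose was IL18, by 1.30-fold in the authors' deposited table (q = 5.60e-06), and CSF1, IL32, IL33 and CLCF1 were not called.

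**Figure D2:**
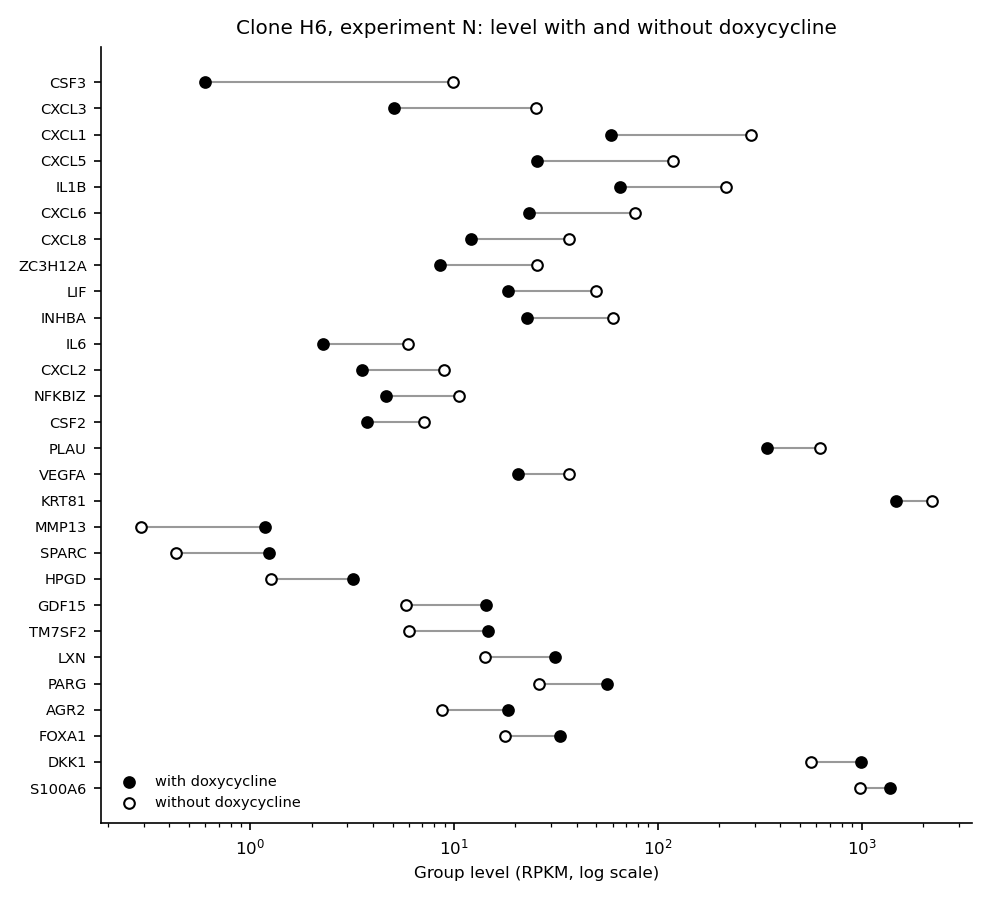
Levels in RPKM (log axis) of 28 genes with doxycycline (filled) and without it (open), read from the higher group mean and the fold in the authors' deposited table; no error bars exist because no values per well are given. The upper 17 genes were lower with doxycycline and the lower 11 higher, and the longest lines are those of CSF3 (0.60 RPKM with, 9.92 RPKM without) and CXCL3 (5.09 RPKM with, 25.3 RPKM without).

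Of 25 cytokine and innate immune receptors and adaptors, which pass these signals into the cell, 4 were called higher and 3 lower, counts near the shares over all genes (9.87% and 10.5%), with a median log2 fold of 0.06. IRAK2, a kinase downstream of the interleukin-1 receptor, fell 1.56-fold in the authors' deposited table (q = 3.00e-13), and IL6ST, the shared receptor chain of the IL-6 family, fell 1.25-fold (q = 6.45e-05). The LIF receptor gene LIFR rose 1.21-fold and the TNF receptor gene TNFRSF1A 1.22-fold in the authors' deposited table (q = 0.00186 and 0.000538).

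Of 24 NF-kB subunits, inhibitors and feedback genes, 11 were called lower (45.8%, against 10.5% over all genes), 13 were not called and none was higher. The median log2 fold was -0.13. The list mixes DNA-binding subunits with the inhibitors and feedback genes that NF-kB itself induces. ZC3H12A, an RNase that destroys cytokine mRNAs, fell 3.01-fold to 8.54 RPKM with doxycycline, against 25.7 RPKM without it, in the authors' deposited table (q listed as 0). NFKBIZ, a nuclear regulator of NF-kB, fell 2.26-fold to 4.66 RPKM with doxycycline, against 10.5 RPKM without it, in the authors' deposited table (q listed as 0). TNFAIP3, the ubiquitin-editing enzyme A20, its partner TNIP1 and the inhibitor NFKBIA fell 1.62-fold, 1.49-fold and 1.42-fold in the authors' deposited table, with q listed as 0, 0 and 3.18e-11. Of the subunits, NFKB1 fell 1.23-fold in the authors' deposited table (q = 0.000743), whereas RELA, RELB and NFKB2 differed by 1.10-fold or less with q from 0.259 to 0.784. ICAM1, an adhesion molecule often used as an NF-kB target, stood at 38.7 RPKM with doxycycline, against 40.1 RPKM without it (q = 0.862), in the authors' deposited table.

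Immediate early genes, which respond within minutes to growth factors and stress, moved in both directions. Of 30 measured, 13 were called lower (43.3%) and 5 higher (16.7%), against 10.5% and 9.87% over all genes. The median log2 fold was -0.17. KLF6, DUSP1, JUN, KLF10 and MYC fell 1.85-fold, 1.70-fold, 1.61-fold, 1.45-fold and 1.35-fold in the authors' deposited table, with q from 0 as listed to 1.88e-08. Of the phosphatases that switch off MAP kinases, DUSP10 fell by 1.82-fold, DUSP5 by 1.47-fold and DUSP4 by 1.45-fold in the authors' deposited table (q from 3.94e-14 to 1.65e-05). SPRY1, a brake on growth factor receptors, rose 1.80-fold in the authors' deposited table, as did the transcription factor genes ATF3 by 1.51-fold and KLF4 by 1.40-fold (q = 3.78e-12, 0.00663 and 0.000485).

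Among called genes with a gene symbol, leaving out a duplicated histone gene described below, the largest rise was that of MMP13 (ENSG00000137745, chromosome 11, bases 102942995 to 102955734), which encodes a collagenase. It stood at 1.19 RPKM with doxycycline, against 0.290 RPKM without it, 4.09-fold higher in the authors' deposited table (q = 1.47e-13). SPARC, a collagen-binding matrix protein, stood at 1.24 RPKM with doxycycline, against 0.432 RPKM without it, 2.86-fold higher in the authors' deposited table (q = 1.10e-09). Both thus remained low in level. HPGD, the enzyme that inactivates prostaglandin E2, rose 2.53-fold to 3.2 RPKM with doxycycline, against 1.27 RPKM without it, in the authors' deposited table (q listed as 0). GDF15, a stress-induced member of the TGF-beta superfamily, rose 2.46-fold to 14.3 RPKM with doxycycline, against 5.84 RPKM without it, in the authors' deposited table (q listed as 0). TM7SF2, a sterol reductase of cholesterol synthesis, rose 2.44-fold to 14.7 RPKM with doxycycline, against 6.03 RPKM without it, in the authors' deposited table (q listed as 0), and shares exon sequence with VPS51 on the same strand. More abundant genes rose about as much: LXN, a carboxypeptidase inhibitor, rose 2.20-fold to 31.2 RPKM with doxycycline, against 14.2 RPKM without it, in the authors' deposited table (q listed as 0). ADIRF, a regulator of fat cell formation, rose 2.20-fold to 45.5 RPKM with doxycycline, against 20.7 RPKM without it, in the authors' deposited table (q listed as 0), and AGAP11 and the antisense gene ADIRF-AS1 overlap it. ECM1, an extracellular matrix protein, rose 2.21-fold, S100P 2.28-fold and SNORC 2.42-fold in the authors' deposited table, at levels of 5.46, 1.12 and 1.54 RPKM with doxycycline.

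Other large falls lay outside the inflammatory lists. TNS4, an adaptor of focal adhesions, fell 3.40-fold to 4.83 RPKM with doxycycline, against 16.4 RPKM without it, in the authors' deposited table (q listed as 0). POU2F2, a POU-domain transcription factor best known from B cells, fell 2.89-fold to 1.64 RPKM with doxycycline, against 4.72 RPKM without it, in the authors' deposited table (q listed as 0). Among very abundant transcripts, the hair keratin KRT81 stood at 1480 RPKM with doxycycline, against 2227 RPKM without it, 1.50-fold lower in the authors' deposited table (q = 2.37e-07); hair keratin genes resemble each other closely, so its reads may include those of relatives. IGFBP4, a binding protein of insulin-like growth factors, stood at 630.0 RPKM with doxycycline, against 1163 RPKM without it, 1.85-fold lower in the authors' deposited table (q listed as 0). The collagen VI chain COL6A2, another abundant gene, was 1.24-fold lower in the authors' deposited table (q = 0.0231). The Wnt antagonist DKK1 rose 1.77-fold to 992.2 RPKM with doxycycline, against 561.6 RPKM without it, in the authors' deposited table (q = 3.94e-14), the largest called rise among genes over 300 RPKM. MIF, a cytokine made by many tumours, was 1.19-fold higher at 488.5 RPKM in the authors' deposited table (q = 0.00386).

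Interferon-stimulated genes form the antiviral programme. Of 32 measured, 12 were called higher and 1 lower, and the median log2 fold was 0.19, against 9.87% higher, 10.5% lower and -0.01 over all genes. OASL rose 2.18-fold and SAMD9L 1.89-fold in the authors' deposited table (q = 5.65e-05 and listed as 0), and IFIT2 and ISG15 rose 1.58-fold and 1.41-fold (q = 1.90e-07 and 7.58e-11). IRF9, part of the factor that drives these genes, rose 1.45-fold in the authors' deposited table (q = 0.000189), whereas its partner STAT2 was not called (q = 0.886). ISG20, an exonuclease, fell 1.28-fold in the authors' deposited table (q = 0.0123). MHC class I genes, which display peptides to T cells, had 5 of 16 called higher (31.2%) and 2 lower (12.5%). In the authors' deposited table B2M, HLA-B and HLA-C rose 1.33-fold, 1.24-fold and 1.26-fold (q from 4.60e-05 to 0.001), while the peptide transporters TAP1 and TAP2 were 1.25-fold and 1.22-fold lower. The HLA genes resemble each other closely, so reads can be shared among them.

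Among 20 complement and coagulation genes, 8 were called higher (40%) and 4 lower (20%), against 9.87% and 10.5% over all genes. The central complement gene C3 fell 2.28-fold, to 0.758 RPKM with doxycycline, against 1.73 RPKM without it, and C5 rose 1.81-fold, to 2.62 RPKM with doxycycline, against 1.45 RPKM without it, in the authors' deposited table (q listed as 0, and 2.36e-11). CD55 and CLU, which restrain complement, rose 1.72-fold and 1.73-fold in the authors' deposited table (both q listed as 0). The plasminogen activator gene PLAU fell 1.81-fold, to 345.0 RPKM with doxycycline, against 624.1 RPKM without it, in the authors' deposited table (q listed as 0). The other activator gene PLAT rose 1.15-fold and the protease inhibitor gene SERPINE2 1.65-fold in the authors' deposited table (q = 0.0398 and listed as 0). Of 23 matrix proteases and inhibitors, 7 were called higher (30.4%) and 3 lower (13%). ADAM9 rose 1.42-fold and the cathepsin gene CTSB 1.29-fold, and the serpin genes SERPINB2 and SERPINB3 fell 1.96-fold and 1.92-fold in the authors' deposited table. Prostaglandin and arachidonic acid genes had 2 of 14 called higher, HPGD and CBR1, and 2 lower, PLA2G16 and the receptor gene PTGER2. Each count is 14.3% of a short list, against 9.87% higher and 10.5% lower over all genes.

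Matrix proteins and integrins had 6 of 38 called higher (15.8%) and 10 lower (26.3%), against 9.87% and 10.5% over all genes. Their median log2 fold was -0.03. TGFBI, VCAN, LAMB3 and FN1 fell 2.11-fold, 1.92-fold, 1.59-fold and 1.47-fold in the authors' deposited table, and the integrin gene ITGB4, whose protein binds laminin in hemidesmosomes, rose 1.73-fold (q listed as 0 except 1.96e-09 for LAMB3). Of 29 TGF-beta, activin and BMP genes, 3 were called higher (10.3%, against 9.87% over all genes) and 7 lower (24.1%, against 10.5%). INHBA, the activin A subunit, fell 2.65-fold to 22.9 RPKM with doxycycline, against 60.5 RPKM without it, in the authors' deposited table (q listed as 0). In the list of 36 EGF family, growth factor and receptor kinase genes, 10 were called higher (27.8%) and 8 lower (22.2%). AREG, an EGF receptor ligand, rose 1.93-fold and the ephrin receptor gene EPHA7 1.67-fold, while VEGFA, HBEGF and IGFBP3 fell 1.78-fold, 1.49-fold and 1.71-fold in the authors' deposited table (q from 0 as listed to 2.63e-07). Wnt, Notch and Hedgehog genes numbered 31, of which 6 were called higher (19.4%) and 8 lower (25.8%). FZD8, a Wnt receptor, fell 2.17-fold to 87.0 RPKM with doxycycline, against 188.9 RPKM without it, and the Notch targets HEY1 and HES1 fell 1.63-fold and 1.43-fold in the authors' deposited table (q from 0 as listed to 5.81e-09).

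Epithelial keratins and junction genes had 9 of 26 called higher (34.6%) and 5 lower (19.2%), against 9.87% and 10.5% over all genes. Mesenchymal genes and their inducers had 4 of 19 called higher (21.1%) and 6 lower (31.6%). KRT80 and CLDN3 rose 1.52-fold and 1.51-fold, KRT8 and KRT18 1.30-fold and 1.31-fold, and CLDN11 fell 1.48-fold in the authors' deposited table; the exons of KRT8 and KRT18 share bases on opposite strands. The mesenchymal inducer SNAI2 fell 1.75-fold to 12 RPKM with doxycycline, against 20.9 RPKM without it (q listed as 0), while VIM was 1.24-fold higher (q = 0.0215) in the authors' deposited table. In the list of 15 prostate luminal genes, 4 were called higher (26.7%) and 5 lower (33.3%). FOXA1, a pioneer factor of the prostate lineage, rose 1.86-fold to 33.0 RPKM with doxycycline, against 17.8 RPKM without it, in the authors' deposited table (q listed as 0). AGR2, a secreted protein disulfide isomerase, rose 2.11-fold to 18.5 RPKM with doxycycline, against 8.78 RPKM without it, in the authors' deposited table (q listed as 0). HOXB13 rose 1.40-fold and NDRG1 1.38-fold, while FOXA2 fell 1.33-fold in the authors' deposited table (q from 7.51e-11 to 1.07e-07). Actin cytoskeleton and SRF or YAP target genes had 8 of 36 called higher and 1 lower; CTGF, WWTR1 and LATS2 of the YAP pathway rose 1.48-fold, 1.37-fold and 1.36-fold in the authors' deposited table (q from 1.82e-13 to 5.08e-07).

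**Figure D3:**
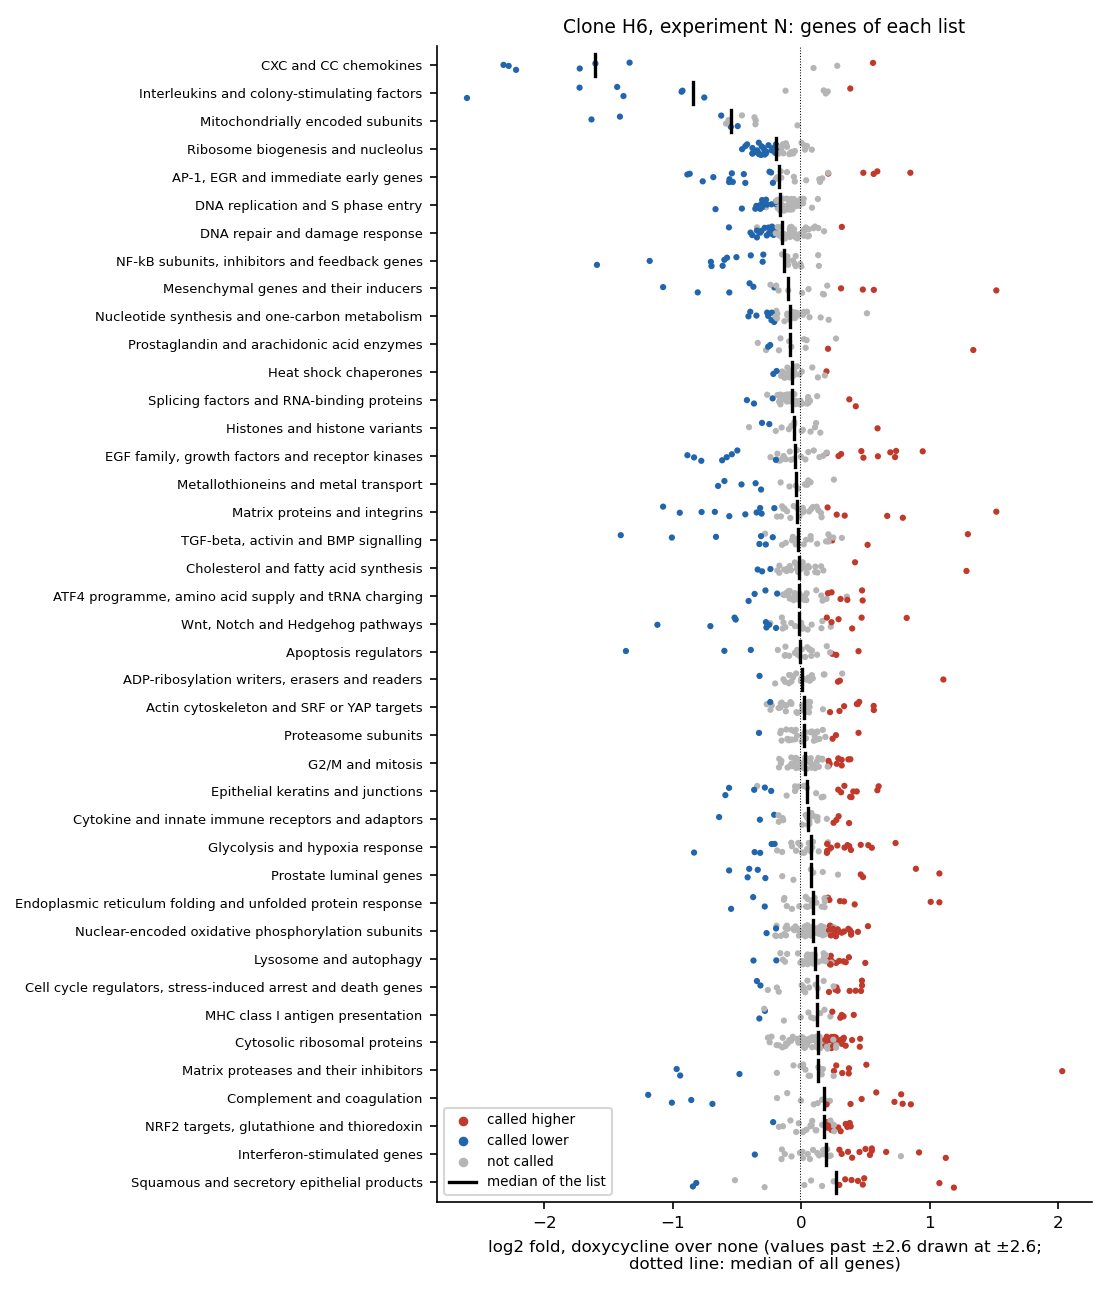
Each point is 1 gene of at least 1 RPKM on its log2 fold, doxycycline over none, in the 41 lists with 3 or more such genes; colours give the call, black bars the median of the list, and the dotted line the median of all genes. The medians of chemokines (-1.60) and interleukins (-0.84) stand farthest from 0, and most other lists hold genes called in both directions.

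Glycolysis and hypoxia genes had 13 of 38 called higher (34.2%) and 5 lower (13.2%), against 9.87% and 10.5% over all genes. Their median log2 fold was 0.07. The glucose transporter gene SLC2A1, the aldolase ALDOC and the mitophagy receptor BNIP3 rose 1.44-fold, 1.46-fold and 1.31-fold in the authors' deposited table (q from 2.54e-12 to 5.49e-07), whereas VEGFA and DDIT4 of the same list fell. NRF2 targets and glutathione and thioredoxin genes, which defend against oxidants, had 12 of 32 called higher (37.5%) and 1, GCLM, lower (3.12%). Their median log2 fold was 0.18. GPX4, which detoxifies lipid peroxides, rose 1.30-fold to 153.5 RPKM with doxycycline, against 118.1 RPKM without it, in the authors' deposited table (q = 1.06e-06). SLC7A11, the cystine importer, and NFE2L2, which encodes NRF2, rose 1.28-fold and 1.24-fold in the authors' deposited table (q = 4.50e-05 and 0.000531), while HMOX1 was not called (q = 0.519). Metallothioneins and metal transporters had 5 of 15 called lower (33.3%) and none higher. MT2A stood at 614.3 RPKM with doxycycline, against 961.5 RPKM without it, 1.57-fold lower, and the transferrin receptor gene TFRC was 1.24-fold lower in the authors' deposited table (q = 0.000244 and 0.021).

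Endoplasmic reticulum folding genes had 7 of 28 called higher (25%) and 3 lower (10.7%), against 9.87% and 10.5% over all genes. The transcription factor gene CREB3L1 rose 2.01-fold to 7.20 RPKM with doxycycline, against 3.58 RPKM without it, in the authors' deposited table (q listed as 0). The main chaperone HSPA5 rose 1.26-fold, while the stress sensor gene ERN1 fell 1.46-fold in the authors' deposited table (q = 0.0114 and 3.46e-12). The ATF4 programme had 6 of 38 called higher (15.8%) and 4 lower (10.5%). DDIT3 was 1.39-fold higher and CEBPB 1.33-fold lower in the authors' deposited table. Heat shock chaperones had 1 of 25 called higher and 2 lower, proteasome subunits 3 of 34 higher and 1 lower, and splicing factors 2 of 46 higher and 3 lower, shares below those over all genes. Lysosome and autophagy genes had 11 of 45 called higher (24.4%) and 2 lower (4.44%). CTSH and MAP1LC3B rose 1.41-fold and 1.27-fold in the authors' deposited table. Cholesterol and fatty acid synthesis had 2 of 33 called higher, TM7SF2 and SREBF1, and 3 lower, shares also below those over all genes. Apoptosis regulators had 3 of 27 called in each direction (11.1%), near the shares over all genes (9.87% higher and 10.5% lower). BCL2A1, a survival gene that NF-kB induces, fell 2.57-fold to 6.82 RPKM with doxycycline, against 17.5 RPKM without it, in the authors' deposited table (q listed as 0), and PMAIP1, the death gene NOXA, rose 1.36-fold (q = 3.91e-07).

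Of 47 genes of ribosome biogenesis and the nucleolus, 25 were called lower and none higher, and the median log2 fold was -0.20. POLR1A, a core subunit of the polymerase that makes ribosomal RNA, fell 1.37-fold, BOP1 1.34-fold and the nucleolar methylase FBL 1.30-fold in the authors' deposited table (q from 2.55e-09 to 0.00897). DNA replication and S phase entry had 16 of 51 called lower and none higher, with a median log2 fold of -0.16. CLSPN, which signals stalled forks, fell 1.59-fold and the polymerase gene POLD1 1.38-fold in the authors' deposited table (q listed as 0, and 2.08e-09), while the sliding clamp PCNA was not called (q = 0.774). DNA repair had 17 of 59 called lower and 1 higher, including BRCA2, BRIP1 and FANCD2, which fell 1.31-fold, 1.27-fold and 1.25-fold in the authors' deposited table (q from 5.09e-05 to 0.00021). Nucleotide and one-carbon genes had 8 of 34 called lower and none higher. Of 54 genes of G2/M and mitosis, 9 were called higher (9.87% over all genes), none lower and 45 not, with a median log2 fold of 0.03. KIF20A, CCNB2 and CDK1 rose 1.30-fold, 1.29-fold and 1.24-fold in the authors' deposited table (q from 1.44e-06 to 0.02), and MKI67, AURKA and PLK1 were not called. Cell cycle regulators and stress-induced arrest and death genes had 9 of 24 called higher and 2 lower. The inhibitor gene CDKN2C rose 1.39-fold and CDKN1C 1.30-fold, and CDKN1A fell 1.27-fold in the authors' deposited table (q = 1.17e-09, 0.0225 and 0.0259). Of 32 histone genes listed, 16 were measured, with 2 called lower and 1 higher, HIST1H1C at 1.51-fold (q = 1.49e-11 in the authors' deposited table). The called histone genes HIST2H2AA3 and HIST2H4B, described below, are not counted there.

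Cytosolic ribosomal proteins had 22 of 78 called higher and none lower, with a median log2 fold of 0.13; RPLP2 stood at 795.9 RPKM with doxycycline, against 579 RPKM without it, and RPL41 at 1056 RPKM with doxycycline, against 842 RPKM without it, rises of 1.37-fold and 1.25-fold in the authors' deposited table (q = 0.000146 and 0.0138). Nuclear-encoded oxidative phosphorylation subunits had 20 of 77 called higher and 2 lower, with a median of 0.09; ATP5ME and COX5B rose 1.43-fold and 1.36-fold in the authors' deposited table (q = 2.71e-11 and 0.000393). Squamous and secretory epithelial products had 8 of 16 called higher (50%) and 2 lower (12.5%), against 9.87% and 10.5% over all genes. That list had 6 called higher and 3 lower in I4 in experiment N, and 1 higher and 4 lower in H6 in experiment B. S100A6, a calcium-binding protein, stood at 1381 RPKM with doxycycline, against 982.9 RPKM without it, 1.41-fold higher in the authors' deposited table (q = 3.68e-05), and the antiprotease gene PI3 fell 1.79-fold (q listed as 0).

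Exon length moved with these calls. Of genes with up to 1000 bases of merged exon (GENCODE release 29), 19.8% were called higher and 8.73% lower, and of genes over 8000 bases 6.49% were higher and 15.3% lower. Clone I4 in experiment N had 19.2% and 9.82% called higher in those classes, and 15.2% and 13.8% lower. Clone H6 in experiment B had 4.8% and 5.49% called higher, and 6.4% and 7.4% lower. Among genes of up to 2000 bases, 4 of 12 ribosomal proteins and 10 of 30 oxidative phosphorylation subunits were called higher, against 149 of 890 (16.7%) and 143 of 872 (16.4%) of the other genes of that length. Over 2000 bases the lists had 18 of 66 (27.3%) and 10 of 47 (21.3%) called higher. The share among the other genes over 2000 bases was not computed. The part of exon length in the rises of these lists was not tested. Many ribosomal protein genes also have near-identical pseudogenes, and the handling of shared reads by the authors is not known here.

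**Figure D4:**
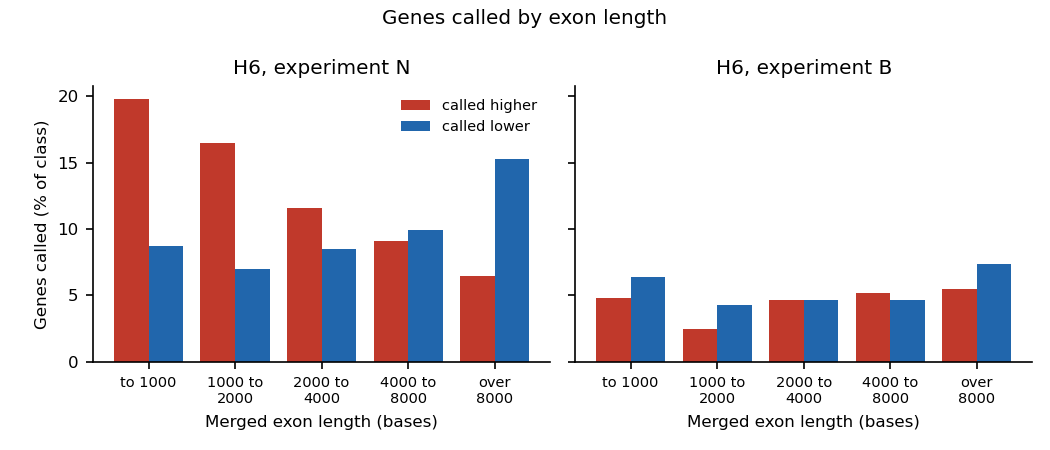
Bars give the percent of genes called higher (red) and lower (blue) with doxycycline in 5 classes of merged exon length, for clone H6 in experiment N on the left and in experiment B on the right, over the same genes. In experiment N the share called higher declines with length, 19.8% in the shortest class and 6.49% in the longest, and no such decline is seen in experiment B (4.8% and 5.49%).

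Of the 13 subunits encoded by the mitochondrial genome, 5 were called lower and none higher, with a median log2 fold of -0.55. MT-ATP8 stood at 93.4 RPKM with doxycycline, against 289.2 RPKM without it, and MT-ND6 at 157.8 RPKM with doxycycline, against 419.4 RPKM without it, falls of 3.10-fold and 2.66-fold in the authors' deposited table (q = 0.0188 and 0.000423). MT-CYB fell 1.54-fold, MT-ND5 1.46-fold and MT-ND4 1.41-fold in the authors' deposited table (q from 0.00936 to 0.0448). The most abundant, MT-CO1, stood at 2318 RPKM with doxycycline, against 2962 RPKM without it (q = 0.0544), in the authors' deposited table. MT-ATP8 shares bases with MT-ATP6, and MT-ND6 is read from the other strand of the circle than most of its neighbours, which libraries that keep both strands do not separate.

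Some of the largest folds belong to transcripts whose reads cannot be assigned with certainty. HIST2H2AA3, a histone gene with a near-identical copy, was 76.9-fold higher in the authors' deposited table, and HIST2H4B, likewise one of a pair, 7.80-fold lower. ARL2-SNX15, BIVM-ERCC5, CHURC1-FNTB and ZHX1-C8orf76 are read-through transcripts that share exons with both of their neighbours, and the first of them was listed 2039-fold lower in the authors' deposited table. SLX1A, listed 2.16-fold higher in the authors' deposited table, has the copy SLX1B. Of the called genes with a fold of 2 or more that have an annotation, 23 of 67 (34.3%) share exon bases with another gene on the same strand, against 17.1% of all genes tested. Sharing on the opposite strand, which these libraries do not resolve, was listed for 18 of the 67 (26.9%), against 40.7% of all genes tested.

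The table's other comparisons share no sample with this one. Over the same genes, 2459 (22.8%) were called in clone I4 in experiment N and 1095 (10.2%) in clone H6 in experiment B. Of the 2193 genes called here, 2067 (94.3%) had the same sign in I4 and 2092 (95.4%) in H6 of experiment B. The share with the same sign among all genes tested was not computed, so these shares have no baseline. Calls in the same direction numbered 1276 with I4, which is 58.2% of the calls here and 51.9% of those in I4, and 829 with experiment B, which is 37.8% of the calls here and 75.7% of those there. In all 3 comparisons 614 genes were called alike, and 696 were called in neither of the others, of which 569 still had the same sign in both. Differences between the comparisons were not tested, because the table holds no values per well, and the values that follow are given side by side.

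The chemokine folds of H6 were smaller than those of I4. CXCL1 fell 4.84-fold in H6 in experiment N, 9.46-fold in I4 in experiment N and 6.35-fold in H6 in experiment B, and CXCL8 3.03-fold, 7.80-fold and 3.19-fold in the authors' deposited table. The medians of the chemokine list in that order were -1.60, -2.88 and -1.75, and those of the NF-kB list -0.13, -0.61 and -0.20, with 11, 20 and 8 members called lower. ICAM1, not called in H6 in either experiment, fell 2.46-fold in I4 in the authors' deposited table (q listed as 0). The order was turned round for other genes: TNS4 fell 3.40-fold in H6 in experiment N, 1.81-fold in I4 and 3.65-fold in H6 in experiment B, and GDF15 rose 2.46-fold, 1.31-fold and 2.65-fold in the authors' deposited table, all called. PARG itself rose 2.15-fold, 1.35-fold and 1.99-fold in the authors' deposited table, all called. The median of MHC class I genes was 0.12 in H6 and -0.18 in I4 within experiment N, and 0.12 for H6 in experiment B. Members called higher in that order numbered 5, 0 and 0, and members called lower 2, 6 and 2. The median of interferon-stimulated genes was 0.19, 0.01 and 0.18 in the same order. IL7R, the interleukin-7 receptor gene, was 1.23-fold higher in H6 in experiment N, 1.50-fold lower in I4 and 1.28-fold higher in H6 in experiment B in the authors' deposited table, all with q under 0.05. ICOSLG, a ligand that costimulates T cells, was 1.25-fold higher here and 1.76-fold lower in I4 in the authors' deposited table (q = 0.000801 and listed as 0).

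Between the experiments with H6, 3 lists are given side by side. Mitochondrially encoded subunits had a median of -0.55 in experiment N and 0.17 in experiment B, where MT-ATP8 was 1.31-fold higher without a call (q = 0.459) in the authors' deposited table. Of the 78 ribosomal proteins, 22 were called higher in experiment N and none in experiment B, and of the 77 oxidative phosphorylation subunits 20 and 1; in I4 in experiment N these counts were 8 and 23. S100A6, 1.41-fold higher in experiment N, differed by 1.02-fold in experiment B (q = 1.00) in the authors' deposited table. In I4 in experiment N, which shares the kit, the medians were -0.65 for mitochondrially encoded and 0.16 for nuclear-encoded subunits, and S100A6 was 1.44-fold higher in the authors' deposited table (q = 0.00223). Calls over all genes were also fewer in experiment B (10.2%) than in experiment N (20.4%), so counts of calls are not directly comparable. Passage, library kit, sequencing centre and the number of wells without doxycycline (3 in experiment N, 2 in experiment B) all differ between the experiments. Their parts cannot be told apart. Of the inflammatory genes, CSF3 fell 16.5-fold in experiment N and 22.7-fold in experiment B, IL1B 3.30-fold and 3.64-fold, CSF2 1.91-fold and 3.32-fold, and C3 2.28-fold and 1.92-fold in the authors' deposited table. Members of the interleukin list called lower numbered 7 in experiment N, against 6 in the other experiment.

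**Figure D5:**
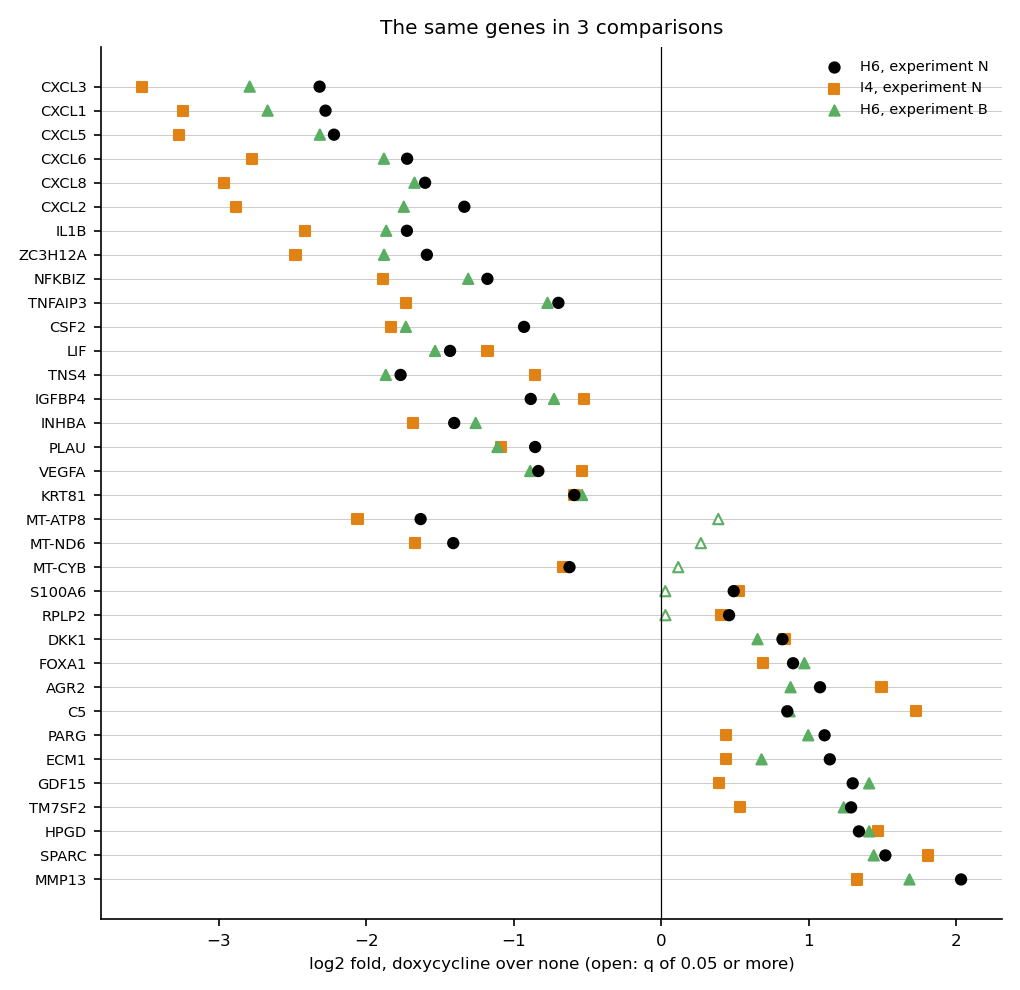
The log2 fold, doxycycline over none, of 34 genes in clone H6 in experiment N (black circles), clone I4 in experiment N (orange squares) and clone H6 in experiment B (green triangles), all from the authors' deposited table; open symbols have a q of 0.05 or more. The chemokines lie farther left in I4 than in H6, and MT-ATP8, MT-ND6, MT-CYB, S100A6 and RPLP2 lie near or past 0 in experiment B.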

How the data were processed

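Poly(A)-selected RNA of 6 wells was sequenced in libraries that keep both strands, per the labels' protocols, so overlapping and antisense genes are not separated. The genome build was hg38, per the submitters' processing notes. Aligner, counter, annotation and test: not given in the sources used here. Values come from the authors' deposited table of 4 comparisons, without values per library. Its level and fold are scores as the authors deposited them. The level is the authors' higher group mean, taken as RPKM from the values, and the column sums to 301832. Level times exon length fell within 0.02 of a step of 1 read in 72.0% of 824 genes of very low level. The steps were themselves read from genes of very low level, so that share is no independent check of the unit. The fold is the authors' signed ratio; its sign was set from PARG. The authors' q-value is the deposited adjusted p-value, and over replicate wells of 1 clone it reflects no more than variation among wells.

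Computed here were log2 folds, the level of the other group, counts of calls at q under 0.05 and list medians (Python 3.11.15, pandas 2.3.3, numpy 2.4.6, matplotlib 3.10.9). The planned count models, leave-one-out fits and replicate block could not be run. Of the rows, 6552 lay under 1 RPKM and 4144 had no fold; 17 rows tested carry names turned into dates and are not named. Names were matched to GENCODE release 29 (10708 of 10767) and, for promoters, to RefSeq (8874). The steps were tested on simulated data.

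Named are PARG, the 15 largest called rises and falls with a gene symbol, the 8 most abundant called genes per direction, the 8 per direction that differ most from each other comparison, and up to 6 called members of each of 45 lists. Other list members named, called or not, and genes under 1 RPKM were picked with their values in view. The members and lists were chosen with earlier results of these data known. Some members of the lists are counted but not reported by name here.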

Additional observations from a re-analysis of the deposited data

Results flagged for a closer look

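Of the genes called in clone H6 in experiment N, 13 were also called in clone I4 in the same experiment but in the opposite direction; the difference between the clones was not tested. Lower in H6 and higher in I4 were RASL11A, AL121722.1, CDKN2B, PTGER2 and PRSS23. RASL11A stood at 11.6 RPKM with doxycycline, against 17.0 RPKM without it, in H6 (1.46-fold lower, q = 1.78e-10) and was 1.20-fold higher in I4 (q = 0.00736) in the authors' deposited table. CDKN2B, an inhibitor of the cell cycle, was 1.25-fold lower in H6 and 1.20-fold higher in I4 in the authors' deposited table. PTGER2, a prostaglandin E2 receptor, was 1.18-fold lower in H6 and 1.50-fold higher in I4 in the authors' deposited table. Higher in H6 and lower in I4 were SEMA3C, INAVA, PARP10, IL7R, ICOSLG, PPIF, INPP4B and SGK1. INAVA, a regulator of innate signalling, was 1.22-fold higher in H6 and 1.41-fold lower in I4 in the authors' deposited table (q = 0.000688 and 1.55e-10). SGK1, a serum- and steroid-induced kinase, was 1.33-fold higher in H6 and 1.19-fold lower in I4 in the authors' deposited table (q = 0.00167 and 0.0278). With clone H6 in experiment B there was 1 such gene: TOMM7, a subunit of the mitochondrial import pore, was 1.15-fold higher in experiment N and 1.19-fold lower in experiment B in the authors' deposited table (q = 0.0432 and 0.0362).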

How the results depend on the processing

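At a q-value under 0.01 the genes called higher numbered 693 in place of 1063, and those called lower 757 in place of 1130. With an absolute log2 fold of at least 0.5 there were 180 and 203. Counts without a level minimum (1138 and 1224) and from 5 RPKM (791 and 824) stayed within 1.5 times, as did the genes called alike in all 3 comparisons at q under 0.01 (411 in place of 614). Of 41 list medians, 3 moved by over 0.1 without a level minimum, 3 from 5 RPKM and none after centring: chemokines to -1.22 and -1.97, interleukins to -0.12 and -1.16, epithelial genes to 0.17 without a minimum, and prostate luminal genes to 0.28 from 5 RPKM; 1 list changed sign from 5 RPKM. No paired analysis was possible because the table holds no values per library, and fits without single replicates could not be run for the same reason. Genes of low level rest on few reads, and their folds are uncertain in size.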

Other observations

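Below 1 RPKM, 169 further genes were called, 75 higher and 94 lower with doxycycline; the genes named here were chosen after their values were seen. Several are secreted or surface proteins. BMP2, a bone morphogenetic protein, stood at 0.153 RPKM with doxycycline, against 0.486 RPKM without it, 3.16-fold lower in the authors' deposited table (q = 4.77e-06), and was 7.59-fold lower in clone I4 in experiment N. PDPN, the membrane glycoprotein podoplanin, was 3.85-fold lower at no more than 0.311 RPKM in the authors' deposited table (q = 8.82e-05). SIRPB2 was 3.27-fold lower and the transcriptional regulator gene MN1 2.69-fold lower in the authors' deposited table (q = 2.75e-09 and 3.62e-07), and both were called lower in I4 in experiment N and in H6 in experiment B as well. ZNF608, a zinc finger gene, stood at 0.903 RPKM with doxycycline, against 0.310 RPKM without it, 2.91-fold higher in the authors' deposited table (q listed as 0), and was called higher in both other comparisons. SPINK13, a protease inhibitor of the Kazal type, and JCHAIN, the joining chain of antibodies, rose 3.00-fold and 7.24-fold in the authors' deposited table (q = 0.00052 and 0.000104), and neither was called in the other comparisons. LUM, a fibroblast marker, was 2.34-fold higher at 0.634 RPKM in the authors' deposited table (q = 0.00356), while the other 7 fibroblast markers under 1 RPKM were not called.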
